A study of Mus musculus with 168 samples.

Results

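Q140 mice were compared with Q92 mice at 6 months of age through the microRNAs of their cortex, 8 libraries titled HET (Q140) 6 month against 8 titled HET (Q92) 6 month, 16 of the 168 libraries of the series. The libraries were chosen by genotype and age in the titles, without use of any measured value. Both groups are heterozygous knock-in mice on a C57BL/6 background, with 1 wild-type Htt allele and 1 allele in which mouse Htt carries human HTT exon 1 with a CAG repeat. The engineered allele is Htt tm4Mem in Q92 and Htt tm1Mfc in Q140, so CAG length and allele of origin differ together and cannot be told apart. The contrast has no control of unexpanded repeat length in it, since both groups carry an expanded repeat. Each group held 4 females and 4 males, and each library came from the bulk cortex of 1 mouse. The libraries held between 3621172 and 6015371 counts over all transcripts, and the difference in depth between the groups had an exact permutation p of 0.435, two-sided.

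The element "L" with a number in the library labels is read here as the sequencing lane, which the labels do not say in words. By that reading all 8 Q92 libraries lay on lanes 5, 6 and 7, with all 4 females on lane 5 and the males on lanes 6 and 7. The Q140 libraries were spread more widely, 1 on lane 1, 1 on lane 5, 1 on lane 6, 2 on lane 7 and 1 on lane 8, and 2 males carry another library code (V, against LB for all others) without a lane. Lanes 5 to 7 thus held 4 Q140 and 8 Q92 libraries, which makes Q140 and Q92 a pair of 6-month genotypes that can be compared within lanes. Within each of these lanes the Q140 and Q92 mice were of opposite sex. The number after LB in the labels is lower in every Q140 LB library than in any Q92 library. The labels do not say what it stands for, and it cannot be told apart from genotype, within lanes too. The library code (LB or V) was a covariate in the main test. Because both V libraries are Q140, the genotype contrast there rests on 6 Q140 and 8 Q92 libraries.

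MicroRNAs are short RNAs cut from hairpin precursors and loaded into Argonaute proteins. The seed, bases 2 to 8 from the 5′ end, pairs with messenger RNAs and lowers their translation or stability, so microRNAs that share a seed can share targets. In Huntington's disease, expansion of the CAG repeat of HTT leads to loss of striatal and cortical neurons. In cortical neurons some microRNAs, Mir132 and Mir212 among them, are induced by synaptic activity through CREB, and others mark non-neuronal structures such as the choroid plexus or ciliated ependyma.

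The mature sequences of the microRNAs on which the results turn are shown here from RefSeq (GRCm38.p6) with the seed in capitals. Of the 324 microRNAs tested, 307 have a mature sequence in that table. The counts are per hairpin transcript, so the 2 arms of a hairpin were not measured apart. The first set shows Mir212, which had the smallest p of the comparison, beside its neighbour Mir132. The 3′ arms share 1 seed, are identical at 17 of 22 positions, and are the only 2 mature microRNAs of the table with that seed.
miR-212-5p: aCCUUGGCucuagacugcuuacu
miR-212-3p: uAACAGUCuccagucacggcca
miR-132-5p: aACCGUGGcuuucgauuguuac
miR-132-3p: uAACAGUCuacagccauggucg

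The second set shows Mir34b, which had the smallest p among microRNAs higher in Q140, with the 3′ arm of its neighbour Mir34c. The 34b and 34c 3′ arms share a seed and are identical at 17 of 22 positions, and the seed of miR-34b-5p is also that of miR-34a-5p, miR-449a-5p and miR-449c-5p. The RefSeq set used held no sequence of miR-34c-5p, so the 5′ arms of Mir34b and Mir34c were not compared.
miR-34b-5p: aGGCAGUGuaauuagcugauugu
miR-34b-3p: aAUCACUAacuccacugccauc
miR-34c-3p: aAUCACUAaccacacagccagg

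The third set shows Mir674, Mir138-1 and Mir29b-1. Mir674 and Mir138-1 were lower in Q140 in all alternatives computed, as were all 10 falling microRNAs of smallest p. The genotype difference of Mir29b-1 changed between 6 and 10 months. The miR-138-5p sequence is made from the loci Mir138-1 and Mir138-2, and miR-29b-3p from Mir29b-1 and Mir29b-2, so reads of these arms could be divided between copies, and single-locus values of Mir138-1 and Mir29b-1 are uncertain for that reason.
miR-674-5p: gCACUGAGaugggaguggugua
miR-674-3p: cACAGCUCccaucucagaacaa
miR-138-5p: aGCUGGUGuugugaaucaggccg
miR-29b-3p: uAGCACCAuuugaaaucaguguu

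At FDR 0.05 no microRNA differed between Q140 and Q92 at 6 months by edgeR's quasi-likelihood test (0 of 324, 0% of those tested), and 20 (6.17%) had an unadjusted p under 0.05, 13 lower (4.01%) and 7 higher (2.16%) in Q140. In no microRNA did the 8 Q140 and 8 Q92 levels fail to overlap (0%). Over all 324 microRNAs 161 were lower and 163 higher in Q140, with a median log2 fold change of 0.00035. DESeq2's Wald test on the same libraries and covariates called 1 microRNA, Mir212, and had 22 with an unadjusted p under 0.05. The precision was set by abundance. For 221 of the 324 microRNAs the whole 95% interval of the fold change lay within 1.5-fold in either direction, and for 172 within 1.25-fold. Among the 201 microRNAs with a mean over 100 counts, 188 had an interval within 1.5-fold, and among the 70 with a mean under 10 counts, 0 did, so for those 70 a change of 1.5-fold was not detectable at this depth with any precision. In bulk cortex, fewer cells of a type and less RNA per cell cannot be told apart.

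Mir212 was 16.3% lower in Q140 in the fit, a difference that did not pass FDR 0.05 by edgeR and did by DESeq2. Its hairpin lies at chr11:75173388-75173478 (GRCm38, plus strand) in an intron of the noncoding transcript 1700016P03Rik, 203 bases before that of Mir132. The normalised read count (CPM, counts scaled to a common library size) ranged from 1003 to 1366 with a median of 1243 in Q140 mice, and from 1320 to 1600 with a median of 1431 in Q92 mice. The groups overlapped only where the highest Q140 library, a female on lane 8, exceeded the 2 lowest Q92 libraries. The raw counts behind these values were between 3543 and 7813 per library, enough that counting error is small beside the spread between mice. The log2 fold change was -0.26 (SE 0.06, 95% interval -0.38 to -0.13) with an adjusted p of 0.187 by edgeR's quasi-likelihood test.

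The difference in Mir212 was also read within lanes. On lane 5 the Q140 library stood at 1003 CPM and the 4 Q92 libraries between 1353 and 1600 CPM. On lane 6 the Q140 library had 1168 CPM, and the 2 Q92 libraries had 1320 and 1526 CPM. On lane 7 the Q140 libraries had 1257 and 1294 CPM, and the Q92 libraries 1428 and 1438 CPM. In every shared lane each Q92 library thus lay above each Q140 library. This held although the lanes pair Q140 males with Q92 females (lane 5) and Q140 females with Q92 males (lanes 6 and 7). The share of all microRNAs that separate in this way was not counted, and Mir212 was picked by its p from these same libraries. Mir138-1 separated in the same way, and Mir3106 did so on few counts with Q140 above Q92. With the 12 libraries of lanes 5 to 7 and both sex and lane as covariates, the log2 fold change of Mir212 was -0.37 (SE 0.07, 95% interval -0.52 to -0.23) with an adjusted p of 0.0315 by edgeR, the only call in that fit of 323 microRNAs (0.31%), in which 35 (10.8%) had an unadjusted p under 0.05. With sex alone on the same libraries it was -0.31 with an adjusted p of 0.159. Since the sexes are opposed within each lane, the fit with sex and lane leans on the 1 Q140 library of lane 5. That male had the lowest Mir212 and the fewest counts (3621172) of the libraries compared. The log2 difference of the lane means was -0.53 on lane 5, -0.28 on lane 6 and -0.17 on lane 7.

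Mir212 also passed FDR 0.05 by DESeq2 (log2 fold change -0.25, adjusted p = 0.0288), by DESeq2 after outlier counts were replaced (-0.25, adjusted p = 0.017), and in an edgeR fit in which the 6 knock-in genotypes from Q20 to Q175 at 6 months shared the estimate of the spread (-0.24, adjusted p = 0.00877). It did not pass in any of the other 12 settings, nor in any of the 16 fits that left out 1 library, where its log2 fold change lay between -0.28 and -0.20 and its adjusted p between 0.0937 and 0.645. Across the settings computed, its adjusted p ranged from 0.00877 to 0.645.

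Mir132, the activity-regulated partner in the same primary transcript, overlapped widely between the groups. It ranged from 5604 to 7204 CPM in Q140 and from 6136 to 7774 CPM in Q92. The Q92 libraries reached higher and the Q140 libraries lower, but most lay in the same range. Its log2 fold change was -0.08 (SE 0.06, 95% interval -0.21 to 0.05, adjusted p = 0.723 by edgeR). With lanes 5 to 7 and lane as a covariate it was -0.17 (95% interval -0.33 to -0.02, adjusted p = 0.406), and on lanes 5 and 6 each Q92 library lay above the Q140 library for Mir132 too. The Q140 library stood at 5604 CPM on lane 5 and at 6134 CPM on lane 6. Taken as a ratio within a library, Mir212 was 18.98% ± 0.68 (SD, n = 8) of the Mir132 level in Q140 and 21.2% ± 1.18 (SD, n = 8) in Q92. The ranges were 17.9% to 20.2% and 19.6% to 22.5%. At 2 months the order was the other way, with 20.36% ± 1.58 in Q140 and 19.59% ± 3.29 in Q92. At 10 months the ratio was 18.76% ± 2.80 in Q140 and 19.7% ± 1.05 in Q92 (SD, n = 8 each). This ratio was computed after the values were seen, and no test was run on it. The third microRNA of the activity-regulated list, Mir134, which limits dendritic spine size, had a log2 fold change of 0.08 (95% interval -0.02 to 0.19), and 0.14 with lane as a covariate. Thus 2 of the 3 members were lower. Over the 16 libraries none passed FDR 0.05 by edgeR, and Mir212 did by DESeq2.

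**Figure D1:**
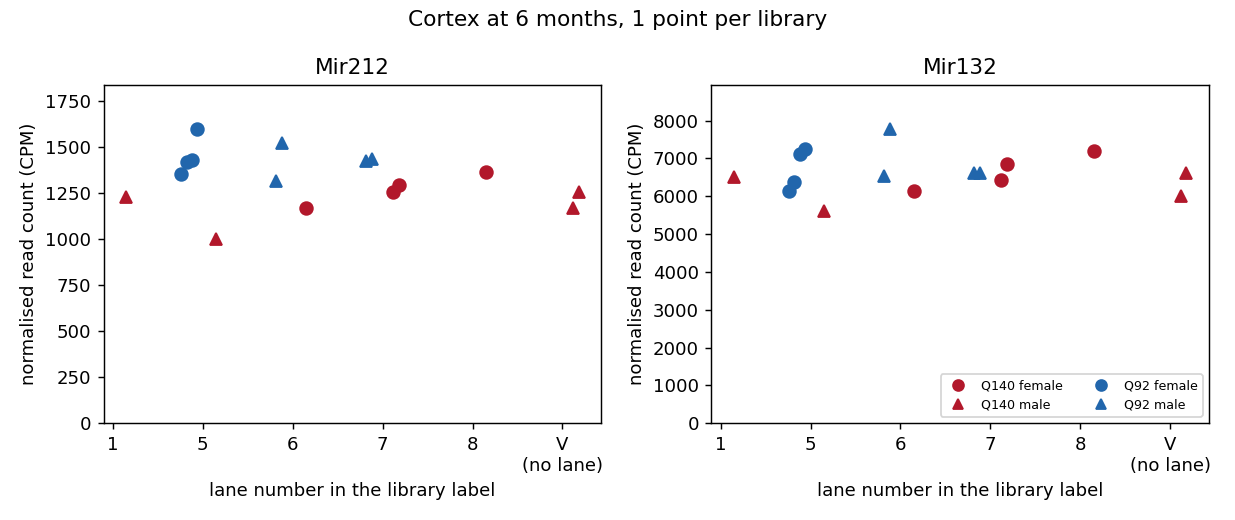
Normalised read count in CPM of Mir212 (left) and Mir132 (right) in each 6-month cortex library, by the lane number of its label, with circles for females, triangles for males, red for Q140 and blue for Q92. In lanes 5, 6 and 7 each Mir212 point of Q92 lies above those of Q140, and those of Mir132 do so on lanes 5 and 6 but share a range on lane 7.

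Among the 6 knock-in genotypes of 6 months (the 8 wild-type libraries of that age were not used here), Q92 had the highest Mir212 level and Q140 the second lowest. Normalised together over the 6 genotypes, the level was 1461 ± 89.0 CPM in Q92, 1369 ± 66.7 in Q80, 1347 ± 101 in Q111, 1346 ± 84.4 in Q20, 1234 ± 103 in Q140 and 1193 ± 97.1 in Q175 (mean ± SD, n = 8 each). The steps from Q92 to Q80 and from Q20 to Q140 are a little larger than the SD of either group, and the other neighbours in this order differ by less than 1 SD. Q92 also lay above Q20, the shortest of these 6 repeats. Apart from V libraries, the Q20 and Q111 libraries lay on lanes 3 and 4 and the Q80 and Q175 libraries on lanes 1 and 2, so that of these lanes only lane 1 holds a Q140 library and none a Q92 library. Lane and genotype cannot be told apart for those levels, which are given as a description. Mir132 stood between 5660 ± 411 CPM in Q175 and 7002 ± 1351 CPM in Q111, with Q92 at 6899 ± 517 and Q140 at 6499 ± 488 CPM.

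The other microRNAs lower in Q140 with the smallest p were Mir344c, Mir674, Mir138-1, Mir143, Mir192, Mir3086, Mir489, Mir744 and Mir340. None of these passed FDR 0.05, with an adjusted p of 0.645 for each by edgeR. Mir674, which lies outside other annotated genes, ranged from 285 to 365 CPM (median 332) in Q140 and from 340 to 394 CPM (median 357) in Q92. Most Q140 libraries lay below most Q92 libraries, with overlap in the middle. Its log2 fold change was -0.16 (SE 0.05). Mir138-1, a brain-enriched microRNA known to act on dendritic spines, ranged from 523.6 to 618 CPM in Q140 and from 577 to 667 CPM in Q92, again with partial overlap. Its log2 fold change was -0.16 (SE 0.05), and in the fit with lane its adjusted p was 0.27. The other locus of the same 5′ arm, Mir138-2, had a log2 fold change of -0.07 (SE 0.04).

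Mir344c, in an intron of the noncoding transcript A230057D06Rik, was detected at 8.57 to 12.9 CPM in Q140 and 9.64 to 13.96 CPM in Q92, with a log2 fold change of -0.30 (SE 0.10). Mir143, a microRNA of vascular smooth muscle, had a median of 26120 CPM in Q140 and 28130 CPM in Q92 and a log2 fold change of -0.13 (SE 0.05). The groups overlapped for both. Mir192, known from liver, gut and kidney, differed by -0.10 (SE 0.04), and the others by -0.20 for Mir3086, -0.11 for Mir744 and -0.13 for Mir340 on the log2 scale. Without the Q92 female with the highest Mir744 its value was -0.058, and without the Q140 male on lane 1 that of Mir143 was -0.083. Mir489 had a fold change of -0.88 (SE 0.37) on that scale, but its counts ran from 0 to 12 per library, at which counting error alone is large.

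The microRNAs higher in Q140 with the smallest p were Mir34b, Mir3106, Mir496a, Mir488, Mir676, Mir1298, Mir592, Mir363, Mir1188 and Mir34c, the last 3 with unadjusted p over 0.05. Mir34b lies at chr9:51103562-51103645 (GRCm38, minus strand), 451 bases from Mir34c and in an intron of Btg4 on the other strand. It belongs to the p53-responsive Mir34 family, which with Mir449 is needed for motile cilia. It ranged from 29.9 to 52.1 CPM (median 38.3) in Q140 and from 22.4 to 33.3 CPM (median 31.4) in Q92. All Q140 libraries but 1 lay above all Q92 libraries. The log2 fold change was 0.40 (SE 0.12, 95% interval 0.15 to 0.65, adjusted p = 0.644 by edgeR). Mir34c had a mean of 629 ± 155 CPM in Q140 and 525 ± 77.4 CPM in Q92 (SD, n = 8 each) and a log2 fold change of 0.29 (SE 0.14).

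Mir496a, of the imprinted Dlk1-Dio3 cluster, had a log2 fold change of 0.16 (SE 0.06), and Mir488, in an intron of Astn1, one of 0.11 (SE 0.04). Mir676 and Mir592, which lie within Eda and Grm8, differed by 0.14 and 0.13, and Mir592 by 0.068 without the Q140 male on lane 5. Mir1298, in an intron of Htr2c, had a range of 188 to 665 CPM (median 235) in Q140 and of 173 to 237 CPM (median 208) in Q92, and 1 Q140 female on lane 6 made up the top of that range. Its log2 fold change was 0.60 (SE 0.26), and 0.30 without that library (adjusted p = 0.645 in either fit by edgeR). Mir3106, in an intron of Csmd1, was measured by only 4 to 16 counts a library, with a log2 fold change of 0.70 (SE 0.21). Mir363 and Mir1188 were as low, with log2 fold changes of 0.56 and 0.53.

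**Figure D2:**
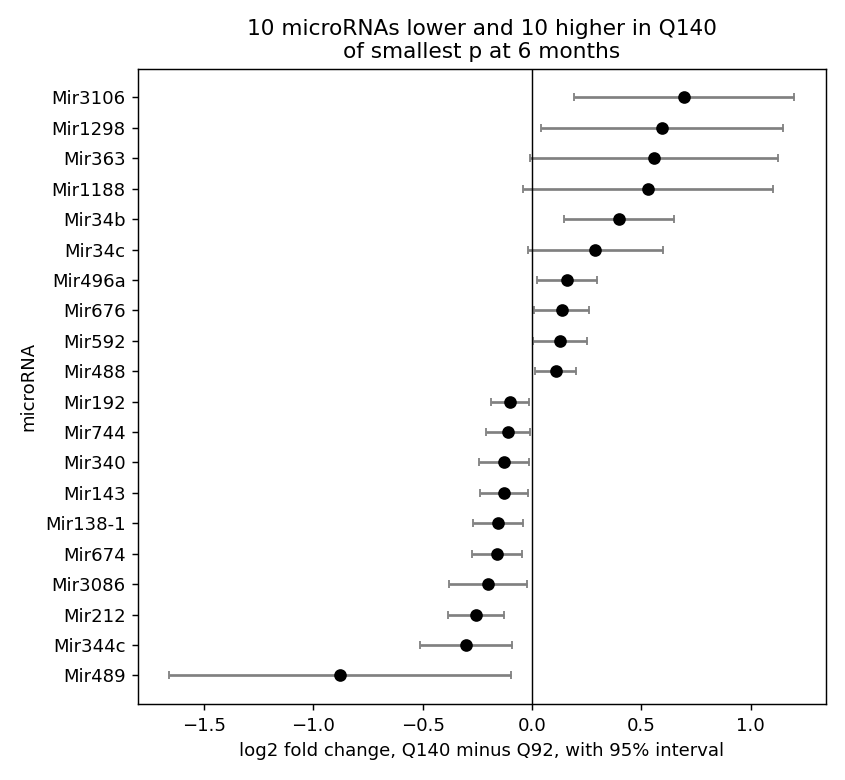
Log2 fold change, Q140 minus Q92, of the 10 microRNAs lower and the 10 higher in Q140 with the smallest p at 6 months, with the 95% interval of edgeR's quasi-likelihood fit (6 LB and 2 V libraries of Q140, 8 LB libraries of Q92). Mir212 lies at -0.26 with a narrow interval, and the interval of Mir489, which has few counts, is the widest of the 20.

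Lists of microRNAs that fall or rise with CAG length were read in this contrast as well. They are not the study's full cortex set. Mir138-2, which the study associates with CAG length in cortex, is in neither. Their members were chosen with results known from samples that include these, so their direction here is not independent evidence. Of the 8 microRNAs of the falling list (Mir132, Mir135b, Mir187, Mir212, Mir221, Mir222, Mir484 and Mir708), 7 had a log2 fold change below 0 and Mir187 one of 0.0012, with a median of -0.08 beside 0.0003 over all microRNAs tested and 49.7% of those below 0. By edgeR none passed FDR 0.05, and only Mir212 had an unadjusted p under 0.05. Mir212 passed FDR 0.05 by DESeq2. With lanes 5 to 7 and lane as a covariate, 6 of the 8 lay below 0 with a median of -0.15, beside 171 of 323 below 0 and a median of -0.01 over all tested. In that fit 5 of the 8 had an unadjusted p under 0.05, against the 10.8% over all tested: Mir212 (called), Mir132, Mir484 at -0.19, Mir135b at -0.21 and Mir708 at -0.13. All 5 share the 1 Q140 library of lane 5, on which that fit leans. By lane means on lanes 5, 6 and 7, Mir135b differed by -0.42, -0.08 and 0.04. Mir708 differed by -0.19, 0.0044 and -0.12, and Mir132 by -0.26, -0.22 and 0.0044. Mir484 (-0.245, -0.12 and -0.14) and Mir212 lay below 0 on each lane. Over all 16 libraries Mir135b had a log2 fold change of -0.13 (95% interval -0.30 to 0.03) and Mir484 one of -0.12 (-0.24 to 0.01). Mir708 differed by -0.08, and the cell-cycle regulators Mir221 and Mir222 by -0.02 and -0.05.

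Of the 12 microRNAs of the rising list, 8 lay above 0 and 4 below, with a median log2 fold change of 0.02 and no call. With lanes 5 to 7 and lane as a covariate, 5 lay above 0 and 7 below, with a median of -0.01. Its extremes were Mir667 at 0.08 and Mir3059 at 0.08 above 0, and Mir615 at -0.47 on about 6 counts a library. Mir195a, a member of the Mir15 and Mir16 seed family, had a log2 fold change of -0.13 (SE 0.06, unadjusted p under 0.05), opposite to the list's name. Mir330 differed by 0.03, Mir210, a hypoxia-induced microRNA, by 0.03, Mir99a by 0.05 and Mir20a by -0.02. The paralogous loci Mir181a-1 and Mir181a-2 (0.01 and -0.03) and Mir125b-1 and Mir125b-2 (0.01 and 0.04) carry the same mature arm in pairs and differed by less than their SE, which was between 0.05 and 0.07. For 11 of the 45 microRNAs named by rule, the direction turned under at least 1 setting. Mir187, Mir221, Mir20a, Mir210, Mir181a-1, Mir181a-2, Mir125b-1 and Mir125b-2 are among them.

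Of the 14 tested neuron-enriched microRNAs 11 were lower and 3 higher in Q140, beside 161 lower of all 324 tested. Their median log2 fold change was -0.05, and none passed FDR 0.05. With lanes 5 to 7 and lane as a covariate 12 were lower, with a median of -0.09, beside 171 of 323 and -0.01 over all tested. Mir138-1 was the only one with an unadjusted p under 0.05. Mir128-1 and Mir9-2, abundant in cortical neurons, differed by -0.04 (SE 0.05) and -0.06 (SE 0.05), and their 95% intervals lay within -0.17 to 0.07. The 35 tested microRNAs of the Dlk1-Dio3 cluster had a median of 0.01, with 22 higher and 13 lower. The let-7, Mir30, Mir181 and Mir17-92 families, the Mir99, Mir100 and Mir125 group, Mir29 and the neuroendocrine microRNAs had medians between -0.04 and 0.07 and no call.

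Microglial and leukocyte (4 tested), oligodendrocyte (2), vascular (3), erythrocyte (1), liver (4) and muscle (4) microRNAs held no call either. The summed level of the vascular list was 33680 to 41140 CPM in Q140 and 36530 to 40840 CPM in Q92, that of the erythrocyte list 3397 to 3969 and 3511 to 4237 CPM, that of the oligodendrocyte list 2732 to 3531 and 2753 to 3199 CPM, and that of the microglia and leukocyte list 4947 to 6269 and 4927 to 6566 CPM. These ranges overlapped throughout. The muscle list summed to 139 to 176 CPM in Q140 and 154 to 187 CPM in Q92, nearly all of it from Mir133a-1, which is outside the set tested, while its 4 tested members had means of at most 2.64 CPM. The Hox-cluster microRNAs Mir10a, Mir10b and Mir615, which mark hindbrain and spinal cord rather than cortex, had log2 fold changes of -0.14, -0.17 and -0.47, each with a 95% interval that includes 0, and 1 of the 6 listed members had no count in any of the 16 libraries.

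Choroid plexus microRNAs were all higher in Q140 in the fit, 6 of 6, with a median log2 fold change of 0.37, beside 163 higher among the 324 tested. None passed FDR 0.05, and Mir1298 alone had an unadjusted p under 0.05. With lanes 5 to 7 and lane as a covariate 5 of the 6 were higher, with a median of 0.39 and none at an unadjusted p under 0.05. The most abundant member, Mir204, stood at 2927 ± 1026 CPM in Q140 and 2376 ± 253 CPM in Q92 (SD, n = 8 each), with a log2 fold change of 0.34 (95% interval -0.06 to 0.73). The summed level of the list was 2280 to 6178 CPM in Q140 and 2148 to 3034 CPM in Q92. The Q140 female on lane 6 held the 6178 CPM, and the next highest Q140 library had 3449 CPM. That female also had the highest Mir34b and Mir1298 of its group and the highest sum of the ciliated-cell list, 976 CPM against 457.8 to 668 CPM in Q92. Without it the log2 fold change of Mir34b was 0.31 and that of Mir34c 0.19, with adjusted p of 0.594 and 0.754 by edgeR. The part of choroid plexus or ependymal RNA in the Mir34b result was not tested.

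The Mir200 family (Mir141, Mir200a, Mir200b, Mir200c, Mir429), which maintains the epithelial state, and the Mir183, Mir96 and Mir182 cluster of sensory organs differed widely between libraries of either genotype. Their summed level ran from 500 to 15550 CPM (median 2492) in Q140 mice and from 510 to 26520 CPM (median 7334) in Q92 mice. In 2 Q140 and 4 Q92 libraries the sum was over 5000 CPM, and in 3 Q140 and 3 Q92 libraries it was under 800 CPM. All 8 members were lower in Q140, with log2 fold changes between -2.25 and -1.72, but the intervals were wide, as for Mir182 at -1.96 (95% interval -4.46 to 0.54), and none had an unadjusted p under 0.05. With lanes 5 to 7 and lane as a covariate the direction did not hold, with 6 members below 0 and 2 above, log2 fold changes between -0.43 (Mir429) and 0.26 (Mir141), and a median of -0.19 in place of -1.98. On lane 5 alone the sum ran from 514.1 to 26520 CPM among Q92 females. Without the 6 libraries of high sum, 6 Q140 and 4 Q92 libraries gave 0 calls of 322 and 17 with an unadjusted p under 0.05 by edgeR, and Mir212 a log2 fold change of -0.25 (adjusted p = 0.43). This subset was chosen after the data were seen.

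**Figure D3:**
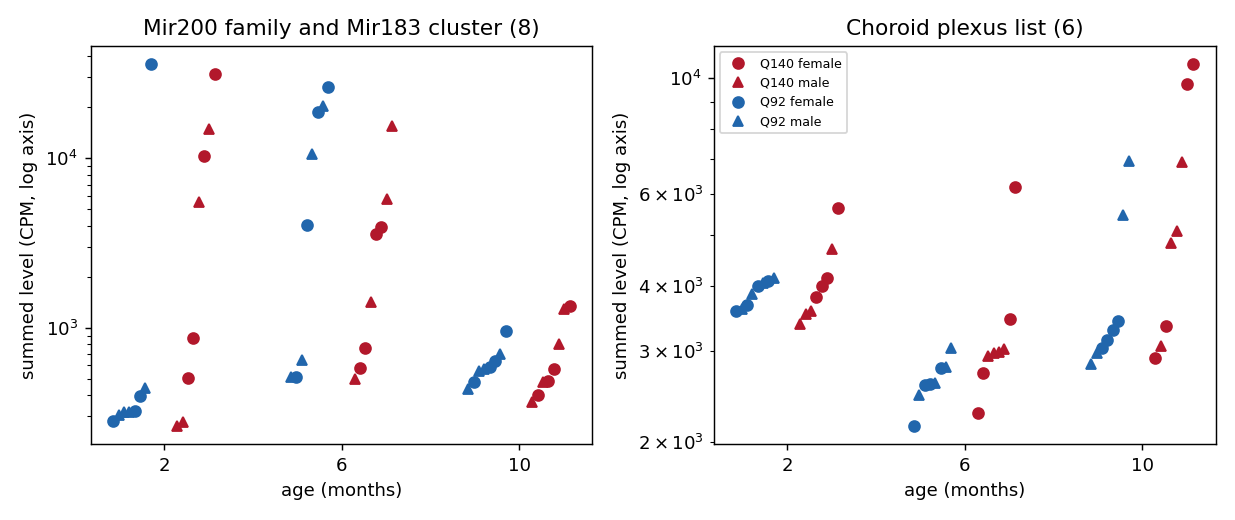
Summed level in CPM, on a log axis, of the 8 microRNAs of the Mir200 family and Mir183 cluster (left) and of the 6 choroid plexus microRNAs (right) in each Q92 (blue) and Q140 (red) library at 2, 6 and 10 months, with circles for females and triangles for males, ordered by value within a group. At 6 months the left panel spans 500 to 26520 CPM with both genotypes at either end, and in the right panel 1 Q140 female lies at 6178 CPM above all others of that age.

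The share of counts on each class of transcript did not separate the genotypes. The study's microRNAs held 65.2% of counts in Q140 and 65.6% in Q92, a difference of -0.34 percentage points (exact permutation p = 0.576, two-sided, 8 against 8, adjusted p = 0.759 over 4 classes). Other named microRNAs, predicted transcripts and transcripts outside the annotation differed by 0.29, 0.010 and 0.041 percentage points, each with an exact permutation p of at least 0.461. In the LB libraries alone the first difference was -0.89 points, with an exact permutation p of 0.0872.

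The effect of genotype depended on sex for 2 of 324 microRNAs (0.617%) at 6 months, Mir122 and Mir124a-3, with 15 (4.63%) at an unadjusted p under 0.05. Mir122, the defining microRNA of hepatocytes, was low in all cortex libraries, with 4 to 55 counts each. Q140 females had 5.25 to 6.49 CPM and Q92 females 2.10 to 3.24 CPM. Q140 males had 0.777 to 3.40 CPM and Q92 males 6.30 to 11.2 CPM. Within each sex the groups did not overlap, in opposite directions. How many of all microRNAs tested show no overlap within a sex was not counted. The interaction was -3.11 on the log2 scale (SE 0.50, adjusted p = 0.0043 by edgeR).

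The same values follow the lanes. Mir122 lay between 5.25 and 11.2 CPM in all 8 libraries of lanes 6, 7 and 8, between 2.10 and 3.40 CPM in all 5 libraries of lane 5, and between 0.777 and 1.14 CPM in the lane 1 library and the V libraries. On lane 5 the Q140 male had 3.40 CPM and the Q92 females had a mean of 2.76 CPM. On lane 6 the Q140 female had 5.82 CPM beside a Q92 male mean of 6.81, and on lane 7 the means were 5.68 CPM in Q140 females and 8.93 CPM in Q92 males. On lane 7 the Q92 males thus lay above the Q140 females, on 23 to 55 counts a library. Since Q92 females and Q140 males had the low lanes and Q92 males and Q140 females the high ones, the interaction of genotype with sex and the lane cannot be told apart in this design. The direct difference between the genotypes for Mir122 was -0.01 (95% interval -1.05 to 1.04) on the log2 scale, and its sign depended on the setting.

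Mir124a-3, a locus of the microRNA that marks neurons, showed the same arrangement at a higher level. Q140 females had 118.5 to 169 CPM and Q92 females 87.6 to 108 CPM, whereas Q140 males had 73.5 to 137 CPM and Q92 males 122.5 to 145 CPM. The groups did not overlap in females and overlapped in males, again without a count of such cases over all microRNAs. The interaction was -1.14 (SE 0.20, adjusted p = 0.00672 by edgeR), and it did not pass without the library code (adjusted p = 0.0671) or without the Q140 male on lane 1 (adjusted p = 0.0972), which had the lowest level at 73.5 CPM. All 5 libraries of lane 5 lay between 87.6 and 108 CPM, and the 8 libraries of lanes 6 to 8 lay between 118.5 and 169 CPM. The mature microRNA is made from several loci with the same arm, so the value for this locus alone is uncertain. The other tested locus, Mir124a-2, had a genotype difference of -0.32 (SE 0.28) at about 47 counts a library.

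**Figure D4:**
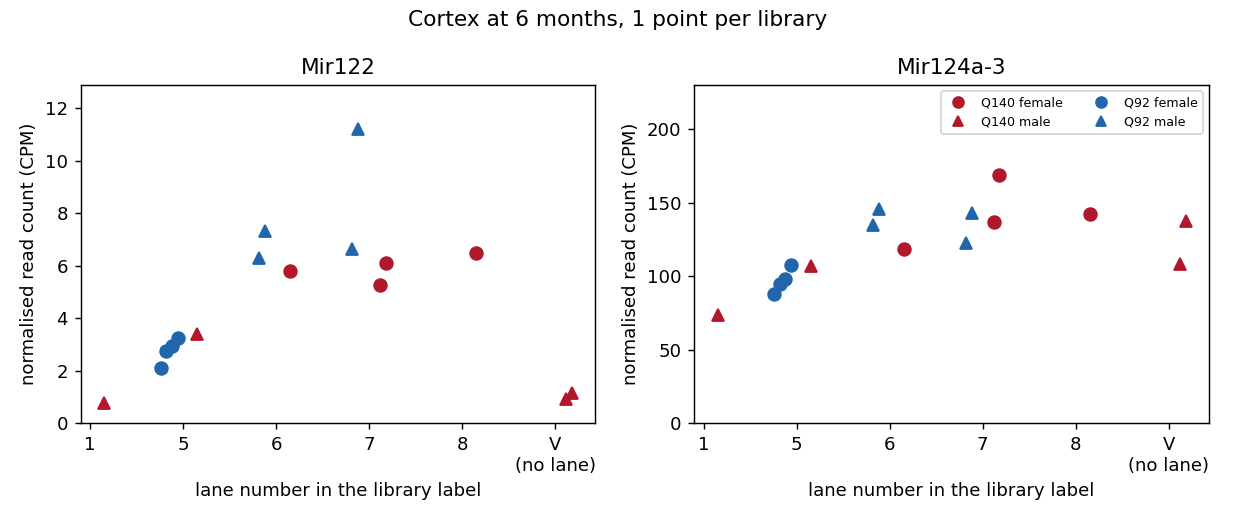
Normalised read count in CPM of Mir122 (left) and Mir124a-3 (right) in each 6-month library by the lane number of its label, with circles for females, triangles for males, red for Q140 and blue for Q92. On lane 5 all libraries lie between 2.10 and 3.40 CPM for Mir122 and between 87.6 and 108 CPM for Mir124a-3, whatever their genotype and sex, and those on lanes 6 to 8 lie above them.

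The same contrast was read at 2 and 10 months in other mice, 8 of each genotype at each age. No microRNA passed FDR 0.05 by edgeR at 2 months (0 of 326, 0%, with 28 or 8.59% at an unadjusted p under 0.05) or at 10 months (0 of 325, 0%, with 33 or 10.2%). At both ages a further code in the labels is shared by several mice and never by both genotypes, so it cannot be told apart from genotype. The lanes were unequal at these ages. At 10 months 5 of the 8 Q92 libraries lay on lane 6 and 0 of the Q140 libraries, of which 6 lay on lane 7 and 2 on lane 8, and with lane as a covariate the 33 became 7. At 2 months 3 Q92 and 0 Q140 libraries lay on lane 1, and with lane the 28 became 35. DESeq2 called 5 microRNAs at 2 months (Mir34b, Mir34c, Mir375, Mir7b and Mir219a-2) and 3 at 10 months (Mir29b-1, Mir30c-1 and Mir135b). Of the 20 microRNAs with an unadjusted p under 0.05 at 6 months, 12 had the same sign at 10 months and 7 at 2 months. Over the 263 microRNAs with at least 10 counts on average, Spearman's rho between the log2 fold changes at 6 and 10 months was 0.0263 and 51.0% had the same sign, and between 2 and 6 months -0.125 and 47.5%, a description across genes that are not independent replicates and that share their annotation and base composition.

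Mir212 was lower in Q140 at 10 months too, with a log2 fold change of -0.19 (SE 0.07, adjusted p = 0.35), and at 2 months it was 0.06 (SE 0.09). It ranged from 957.5 to 1420 CPM in Q140 and from 1312 to 1588 CPM in Q92 at 10 months, and from 1527 to 1782 and 1033 to 1793 CPM at 2 months, with overlap at both ages. The interaction of genotype with age between 2 and 6 months had an adjusted p of 0.446 for Mir212 and called 0 of 326 microRNAs (0%, with 28 or 8.59% at an unadjusted p under 0.05), so a change of the difference with age was not shown. With lane as a covariate Mir212 differed by -0.0022 (95% interval -0.22 to 0.21) at 2 months and by -0.10 (-0.30 to 0.10) at 10 months. Mir132 had log2 fold changes of 0.01, -0.08 and -0.11 at 2, 6 and 10 months, and Mir135b of -0.02, -0.13 and -0.28, the last with an adjusted p of 0.0995 by edgeR, and -0.19 (95% interval -0.42 to 0.03) with lane.

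Mir34b was higher in Q140 at each age, with log2 fold changes of 0.54 (SE 0.13), 0.40 (SE 0.12) and 0.59 (SE 0.23) at 2, 6 and 10 months, and adjusted p of 0.143, 0.644 and 0.358. Mir34c had 0.45, 0.29 and 0.71. The 95% intervals of Mir34b lay above 0 at the 3 ages, and no adjusted p passed FDR 0.05 by edgeR. With lane as a covariate it was 0.54 (0.22 to 0.86) at 2 months, 0.45 (0.13 to 0.76) on the shared lanes at 6 months, and 0.53 at 10 months with an interval that includes 0 (-0.33 to 1.38). The summed level of the ciliated-cell list, which Mir34c dominates, had a median of 568 CPM in Q140 and 467 CPM in Q92 at 2 months, 631 and 554 CPM at 6 months, and 1164 and 679 CPM at 10 months. Its other tested members, Mir449a and Mir449c, had log2 fold changes of -0.0058 (SE 0.14) and 0.31 (SE 0.33) at 6 months, on means of 36.4 and 4.1 counts. The choroid plexus sum had medians of 4960 CPM in Q140 and 3214 CPM in Q92 at 10 months, and of 3898 and 3922 CPM at 2 months. Its relation to Mir34b was not tested. Normalised over the 6 knock-in genotypes of 6 months, mean Mir34b was higher in the groups Q20 (40.4), Q80 (39.1) and Q140 (39.0) and lower in Q111 (30.1), Q175 (30.1) and Q92 (29.9), with SDs between 3.43 and 18.2 CPM, so the level had no single order by CAG length.

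The difference between Q140 and Q92 changed between 6 and 10 months for 1 of 326 microRNAs (0.307%), Mir29b-1, with 24 (7.36%) at an unadjusted p under 0.05. The Mir29 family is known for its rise as neurons mature and its collagen targets. Mir29b-1 differed by 0.19 (SE 0.11) on the log2 scale at 6 months and by -0.48 (SE 0.11, adjusted p = 0.0995) at 10 months, and the interaction was -0.71 (SE 0.16, adjusted p = 0.0464 by edgeR). The call was close to the threshold. It was lost with RLE normalization (adjusted p = 0.069), without the library code (0.0532) and in 14 of the 32 fits that left out 1 library, while the interaction itself stayed between -0.78 and -0.60 in those fits. Lane was not a term in the interaction, and with lane the 10-month difference was -0.27 (95% interval -0.58 to 0.03). At 6 months its Q140 level was 114 ± 22.8 CPM and its Q92 level 103 ± 16.6 CPM (SD, n = 8 each), with overlapping groups. Mir375 was higher in Q140 at 2 and 10 months, by 0.33 and 0.39 on the log2 scale (adjusted p = 0.143 and 0.154 by edgeR; 0.37 and 0.27 with lane), and differed by 0.04 (SE 0.11) at 6 months.

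**Figure D5:**
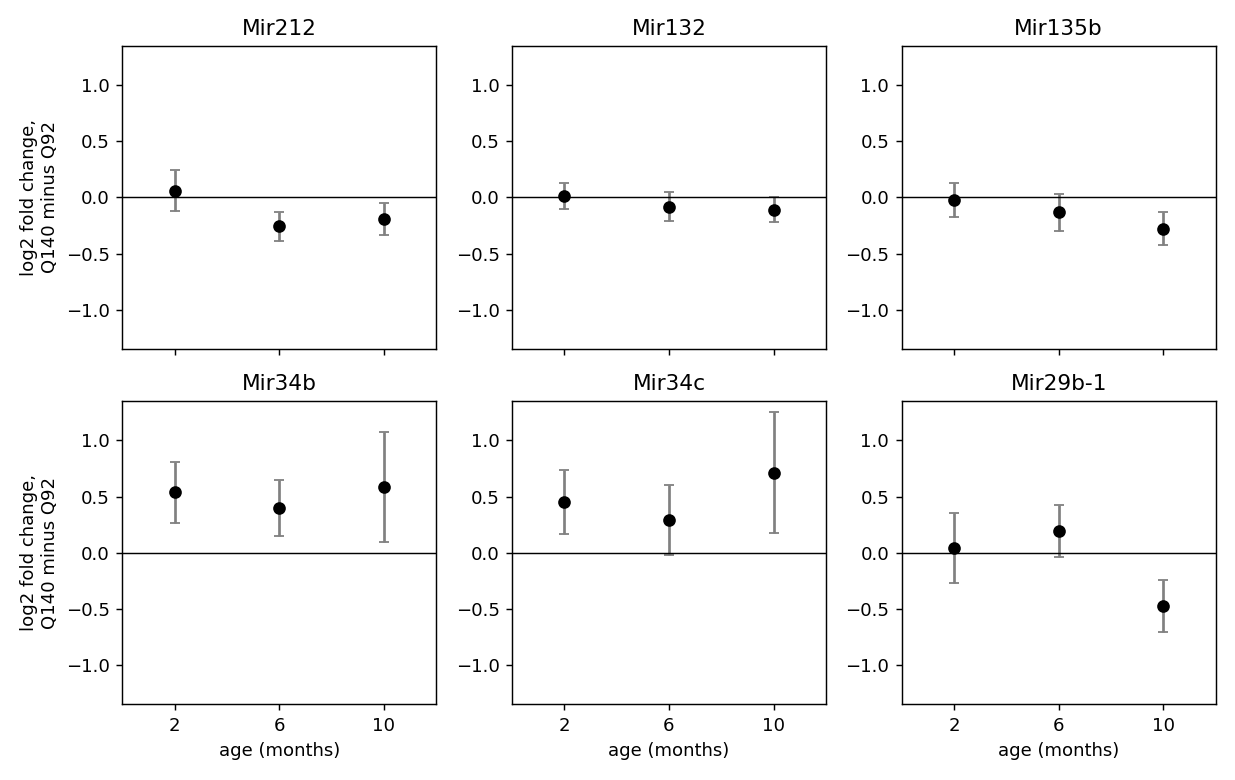
Log2 fold change, Q140 minus Q92, with its 95% interval, of Mir212, Mir132, Mir135b, Mir34b, Mir34c and Mir29b-1 at 2, 6 and 10 months, from separate edgeR fits of 8 mice against 8 without lane as a term. Mir34b lies above 0 at each age, Mir212 lies below 0 at 6 and 10 months, and Mir29b-1 moves from 0.19 at 6 months to -0.48 at 10 months.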

How the data were processed

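Small RNA of mouse cortex was sequenced by the authors, clipped, aligned with STAR to mm10 and deposited as an estimated count per Ensembl transcript and library, without normalization; the submitters' processing notes name CASAVA 1.8.2. The methods name gene counts by HTSeq, but 48.1% of the deposited values above 0 are not whole numbers, so reads appear divided between transcripts. The estimated counts were rounded. Of 480 microRNAs in the study's list, 329 matched one of 1626 transcripts by symbol in GENCODE M21 (GRCm38), and a microRNA entered a fit if any of its libraries held 1 count or more. A table of FPKM values was not used.

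Groups came from the titles. The 16 libraries held 3621172 to 6015371 counts, and for microRNAs under 10 counts the counting error is large; intervals cover 95%. Tests used edgeR 4.0.16 in R 4.3.3 (TMM, robust quasi-likelihood F test, two-sided, Benjamini-Hochberg adjustment, FDR 0.05) with sex and, where V libraries entered, library code as covariates; other genotypes, wild type included, were left out. Levels are TMM-normalized CPM. Shares of counts were compared by an exact permutation test. No 2 libraries agreed within sampling noise. Replicates were separate mice, and per the study's methods a litter gave at most 1 mouse of each sex and genotype. At 2 and 10 months the library labels hold a further code that several mice share, never across Q140 and Q92. The labels do not say what it stands for. The 6-month labels of these 2 genotypes hold no such code. The scripts were checked on simulated counts with known fold changes. Alternatives were RLE, library size alone, DESeq2 1.42.0 with and without replaced outlier counts, filterByExpr, wider feature sets, covariate choices, lane subsets, a fit over the 6 knock-in genotypes of 6 months, a replicate block and each library left out. The microRNAs named were those past FDR 0.05 in a comparison with at most 5 calls, the 10 rising and 10 falling of smallest p at 6 months, Mir122 and all members of the activity-regulated, CAG-length and Hox lists; others (Mir138-2, Mir204, Mir182, Mir128-1, Mir9-2, Mir124a-2, Mir375, and DESeq2 calls) were chosen after their values were seen. Members and lists were chosen with earlier results of these data known.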

Additional observations from a re-analysis of the deposited data

Results flagged for a closer look

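Of the 45 microRNAs named by rule, each was examined in both 6-month groups for a library far from the others by Dixon's test at the 95% level, 90 groups in all, and 8 were flagged. Chance flags about 1 in 20 groups. Q140 female 1, on lane 6, had the highest Mir34b, 52.1 CPM beside 39.9 CPM in the next library, and the highest Mir1298, 664.6 CPM beside 391.8 CPM, and it is the library with the highest choroid plexus sum, 6178 CPM. Q92 female 2, on lane 5, had the highest Mir744 at 1921 CPM (next 1699), the highest Mir181a-2 at 150700 CPM (next 123000) and the lowest Mir187 at 39.0 CPM (next 113.1). The other flags were Mir676 in Q140 female 2, lowest at 347 CPM (next 411), Mir222 in Q140 female 3, highest at 2549 CPM (next 2313), and Mir10b in Q140 male 3, a V library, highest at 335 CPM (next 242.5).

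In 3 cases the genotype difference itself differed between groups of mice by an interaction test of edgeR. The difference changed between 6 and 10 months for Mir29b-1, by -0.71 on the log2 scale (adjusted p = 0.0464). It differed between the sexes at 6 months for Mir122, by -3.11 (adjusted p = 0.0043), and for Mir124a-3, by -1.14 (adjusted p = 0.00672), both of which also differed between lanes in the way given in the report, and lane and sex by genotype cannot be told apart.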

How the results depend on the processing

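The count of 0 calls at 6 months held in 12 of 16 settings and in all 16 fits that left out 1 library (0 to 0 calls, 14 to 26 at an unadjusted p under 0.05). It was 1 call, Mir212 each time, with DESeq2, with DESeq2 after outlier counts were replaced, with lanes 5 to 7 and lane as a covariate, and with the 6 knock-in genotypes in the fit. The cause was not tested. DESeq2 called 5 at 2 months and 3 at 10 months. With lane as a covariate the number with an unadjusted p under 0.05 at 10 months was 7 in place of 33. The interaction with age over 6 and 10 months gave 0 calls with RLE and 2 without the library code (Mir344i and Mir3106, on few counts), and 0 to 2 with 1 library left out. Mir29b-1 then lost its call without Q140 10-month females 1, 2, 3 or 4 or male 1, Q140 6-month females 3 or 4 or male 4, Q92 10-month female 2, or Q92 6-month females 1 or 3 or males 1, 2 or 4 (adjusted p 0.0504 to 0.107). The interaction with sex gave 1 call without the library code, Mir122, and 1 to 3 with 1 library left out; leaving-out fits of the interactions were added after the data were seen. The adjusted p of Mir122 there was at most 0.0271.

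Of the 45 microRNAs named by rule, 34 kept their direction in all settings, the 20 of smallest p among them. Those 20 were chosen by p in these same libraries. Each setting refits all or part of the libraries, so the kept direction is not independent evidence. Of the 11 that turned, most lay near 0 on the log2 scale; Mir10a and Mir29b-1 did not. Log2 fold changes of Mir122 were 0.052 by DESeq2 and 0.052 with outlier counts replaced, 0.0015 with all named microRNAs, 0.019 with all transcripts, 0.0024 with filterByExpr, 0.013 with library size alone, 0.40 on lanes 5 to 7 with sex, 0.50 on lanes 5 to 8, and -0.20 to 0.50 with 1 library left out. Mir125b-1 had -0.0010 on lanes 5 to 8, -0.018 and -0.044 on lanes 5 to 7 without and with lane, -0.022 with the 6 knock-in genotypes and -0.027 to 0.050 with 1 library left out. Mir125b-2 had -0.067 with lane. Mir181a-1 had -0.043 on lanes 5 to 8, -0.028 and -0.0017 on lanes 5 to 7 without and with lane, -0.0044 without sex and -0.043 to 0.024 with 1 library left out, where Mir181a-2 had -0.054 to 0.042. Mir187 had -0.034 with the 6 knock-in genotypes, -0.046 without the code, -0.064 without sex, -0.089 with outlier counts replaced and -0.14 to 0.087 with 1 library left out. Mir221 had 0.018 and 0.0064 on lanes 5 to 7 without and with lane and -0.046 to 0.011 with 1 library left out. Mir20a had 0.0041 with library size alone and -0.062 to 0.052 with 1 library left out. Without the libraries of high epithelial sum, Mir10a had 0.13, Mir210 -0.027 and Mir29b-1 -0.029.

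The replicate block, which pairs mice by the sex and number in their titles, gave 0 calls at 6 months and 0 at 2 and 10 months, and turned Mir122 to 0.063, Mir125b-1 to -0.0012 and Mir181a-1 to -0.0084; Mir212 had -0.23 with an adjusted p of 0.474. The numbers mark no shared litter in the labels, and same-numbered mice did not deviate together, with correlations of -0.911 to 0.724 over 8 pairs, 2 of them over 0.1, and 2 of 16 mice closest to their own number. Counting depth limits the 70 microRNAs with a mean under 10 counts, whose median SE was 0.51 on the log2 scale against 0.0663 for those over 100 counts.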
